A study of Mus musculus with 8 samples.

Results

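The PGC-1 coactivators and the transcription factors of mitochondrial biogenesis were followed as 10 genes in C2C12 cells when DOR was knocked down. The genes were Ppargc1a, Ppargc1b, Pprc1, Esrra, Nrf1, Gabpa, Tfam, Tfb1m, Tfb2m and Polrmt. They were chosen by name, with earlier results of these data known. All 22 probe sets annotated with 1 of these symbols alone were used, out of 45037 probe sets tested and 18193 genes named. A probe set is the group of short array probes whose signals are summarised into 1 value for a transcript.

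C2C12 is an established mouse myoblast line whose cells leave the cycle and fuse into myotubes when serum is lowered. Both groups carried a GFP lentivirus, with scrambled RNA in 4 arrays and with DOR siRNA in 4, used at an moi of 100. DOR is the product of Trp53inp2, known as a nuclear receptor cofactor and an autophagy protein. All cultures were amplified for 5 to 7 days, sorted to 93 to 99% GFP-positive cells and then held for 4 days in medium with 5% horse serum, per the labels' protocols, while other labels call them confluent myoblasts. The labels name 1 DOR siRNA, so effects of DOR loss and of the siRNA on other transcripts cannot be told apart. The labels call the replicates biological without saying how the cultures were derived, so p-values measure the spread between these arrays.

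The PGC-1 coactivators do not bind DNA themselves. They dock on DNA-binding factors, among them the orphan nuclear receptor ERRalpha (Esrra), nuclear respiratory factor 1 (Nrf1, not the Nfe2l1 protein of the same nickname) and the GABP alpha subunit (Gabpa), and raise the transcription of nuclear genes for mitochondria. Some of those targets encode the proteins that enter the organelle and copy or transcribe its DNA, such as Tfam and Polrmt. In muscle the pathway is known for raising oxidative capacity with exercise and differentiation.

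None of the 22 probe sets passed the test between DOR siRNA and scrambled arrays (limma, adjusted p from 0.21 to 0.97), while 3.22% of all probe sets did, 1.19% lower and 2.04% higher. The differences were small, with a median of -0.17 log2 units over the 10 genes (brightest probe set of each) and 0.47 as the largest size over all 22 probe sets. At an unadjusted p under 0.05, 2 probe sets were lower, those of Tfb2m and of Tfb1m, and 0 were higher, where 6.88% of all probe sets were lower and 8.46% higher. The groups overlapped for each of the 22, while they did not overlap for 9.85% of all probe sets. Of the 10 genes, 7 had a negative and 3 a positive difference, and 45.1% of all named genes were negative. The median over all named genes was 0.015 (log2).

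**Figure D1:**
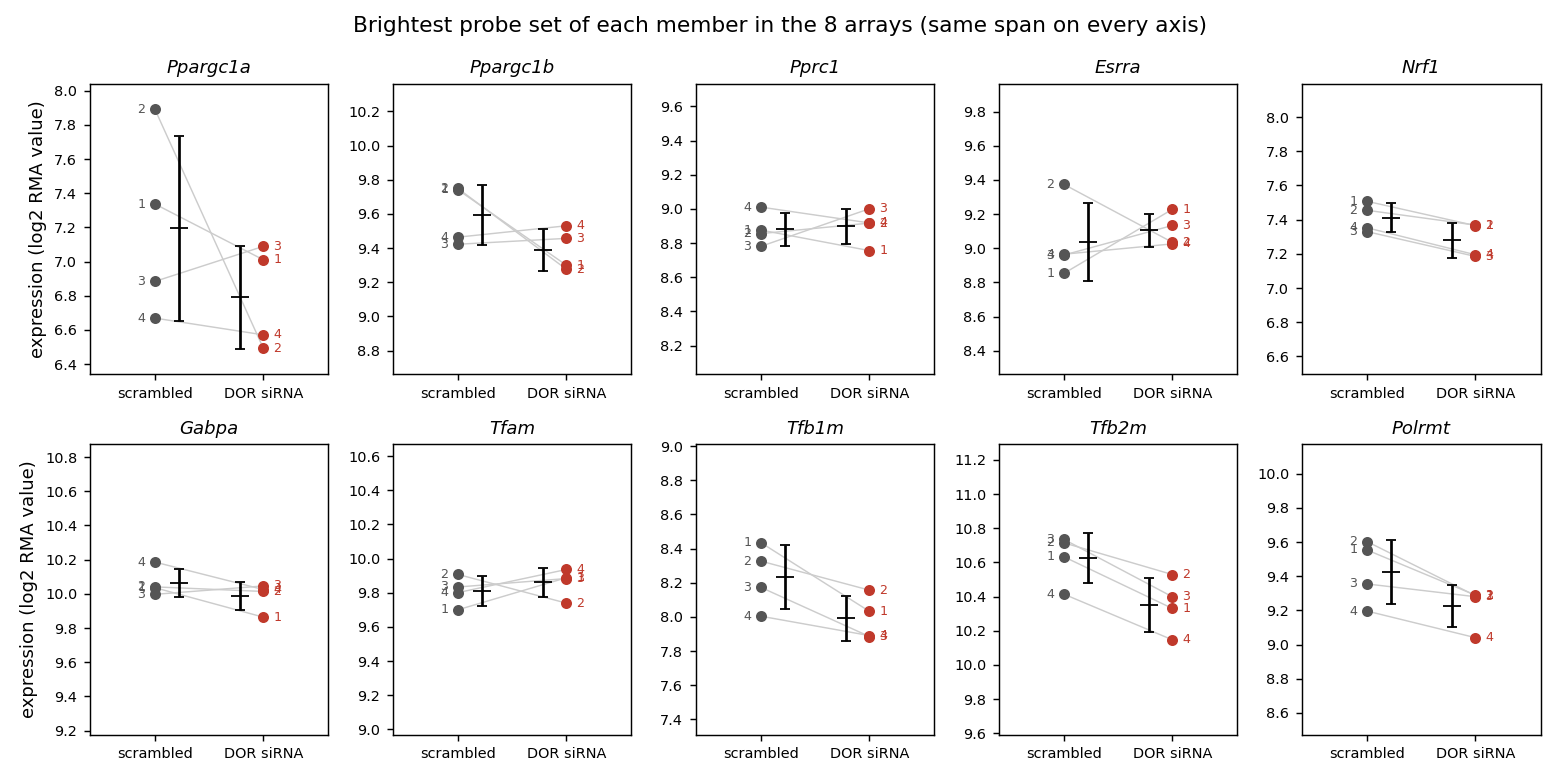
Log2 RMA value (vertical axis) of the brightest probe set of each of the 10 genes in the 4 scrambled (grey) and 4 DOR siRNA (red) arrays, with replicate numbers beside the points, grey lines joining equal numbers, and bars for mean and SD. The axes have the same span but different starts, so levels are not compared between genes. In each panel the groups overlap, and Tfb1m, Tfb2m, Polrmt and Nrf1 have 4 of 4 lines going down.

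The precision of 4 arrays against 4 sets what could be seen. The 95% interval of the difference lay within 1 log2 unit of 0 for 20 probe sets and within 0.5 units for 16. The exceptions to the narrower range were the 5 probe sets of Ppargc1a and 1 of Gabpa. Among the called differences of all probe sets the median size was 0.54 and the smallest 0.29.

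**Figure D2:**
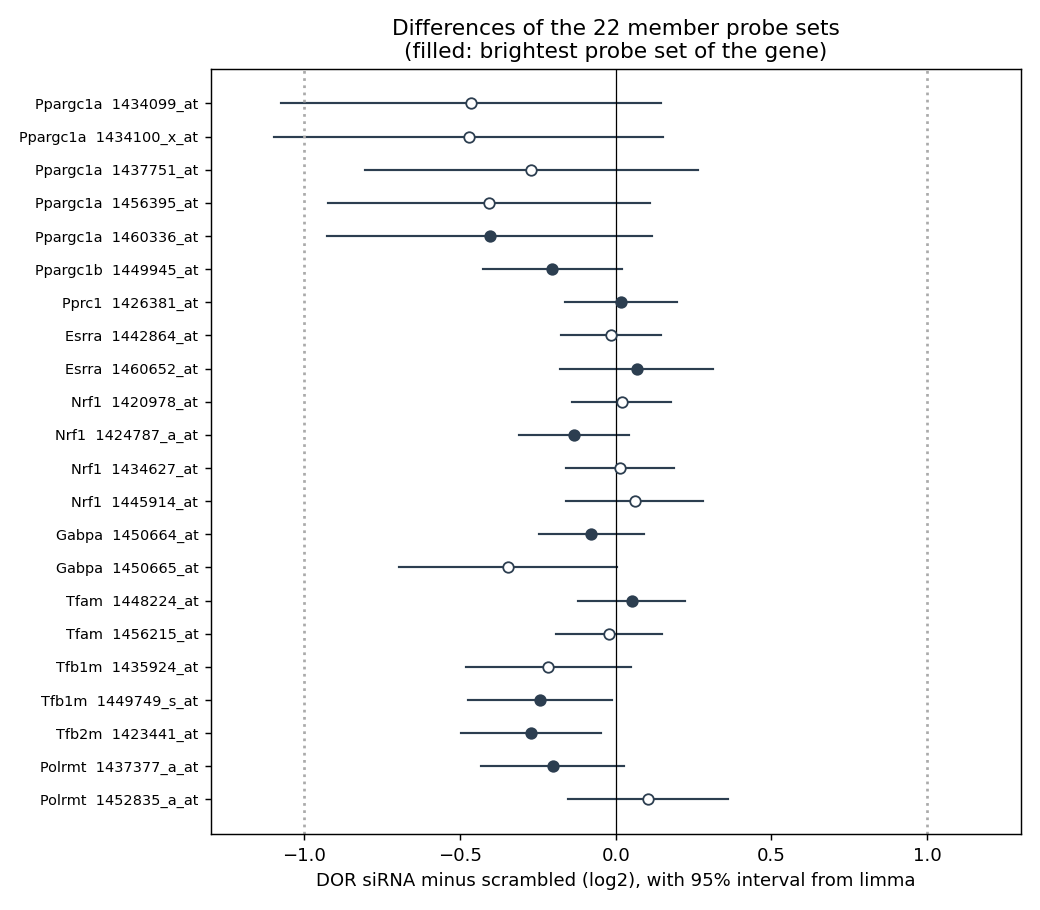
Difference of DOR siRNA minus scrambled (log2, horizontal axis) for the 22 probe sets with its 95% interval from limma. Filled points mark the brightest probe set of a gene and dotted lines mark 1 log2 unit. The intervals of Tfb2m and of Tfb1m 1449749_s_at stay below 0, without adjustment for the number of tests, and those of Ppargc1a are the widest.

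The knockdown itself was present, since Trp53inp2 fell by 1.83 ± 0.17 on the log2 scale at its brightest probe set (limma adjusted p = 0.00087), with no overlap between groups. Its other probe set, 1444396_at, differed by 0.14 ± 0.08 (limma adjusted p = 0.52), so 1 of 2 was lower. The arrays were alike in their medians (6.14 to 6.20) and correlated at 0.988 to 0.997. Beside the label of confluent myoblasts, myotube markers were high in every array: the mean of 20 genes lay at 12.16 to 12.64 in the scrambled arrays and 11.21 to 11.84 in the DOR siRNA arrays. All 20 had a negative difference and 8 fell. Of 10 myoblast markers, whose means per array were 10.02 to 10.20 and 10.19 to 10.38, 1 rose and 1 fell. Over all named genes, 1.45% fell, 3.11% rose and 45.1% had a negative difference. The marker lists were chosen with earlier results of these data known, so their counts are descriptions and not a test. Markers of other cell types, 11 in number, averaged 5.40 to 5.57 and 5.36 to 5.60, and 4 of the 11 lay above the median of all values. In bulk cultures, fewer cells of a type and less RNA per cell cannot be told apart.

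The first of the coactivators, Ppargc1a, encodes PGC-1alpha, the inducible member of the family. The brightest of 5 probe sets, 1460336_at, read 7.34, 7.89, 6.88 and 6.67 log2 units in scrambled arrays 1 to 4 and 7.01, 6.49, 7.09 and 6.57 in DOR siRNA arrays 1 to 4. The highest values were scrambled 1 and 2, and the other 2 scrambled arrays lay inside the DOR siRNA range. The means were 7.19 ± 0.54 and 6.79 ± 0.30 (SD, n = 4 each), a difference of -0.40 ± 0.24 (95% interval -0.93 to 0.12, limma adjusted p = 0.48). Scrambled 2 set much of it, and without that array the difference was -0.17.

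The other 4 probe sets of Ppargc1a had the same sign and overlapped likewise. Probe set 1456395_at read 7.08, 7.58, 6.59 and 6.28 against 6.76, 6.23, 6.53 and 6.38, a difference of -0.41 ± 0.24 (limma adjusted p = 0.47). Probe set 1434099_at read 6.06, 6.55, 5.33 and 4.99 against 5.47, 5.29, 5.32 and 4.98, a difference of -0.47 ± 0.28 (limma adjusted p = 0.49), and was the only one lower in all 4 same-numbered pairs. The remaining 2 differed by -0.27 ± 0.24 (1437751_at) and -0.47 ± 0.28 (1434100_x_at). Each of the other 4 also rested on scrambled 2, without which they differed by -0.17 (1456395_at), -0.19 (1434099_at), -0.05 (1437751_at) and -0.19 (1434100_x_at). Without scrambled 4 the differences grew instead, to -0.58 (1460336_at), -0.61 (1456395_at), -0.71 (1434099_at) and -0.51 (1437751_at). For 1434100_x_at, leaving out 1 array gave -0.70 to -0.19. The wide intervals came mostly from the scrambled arrays, whose SD was 0.54 to 0.70 over the 5 probe sets, against 0.15 to 0.30 in the DOR siRNA arrays. Probe sets that may share probes or transcript are repeat readings of 1 gene and not replicates of it.

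Among the scrambled arrays the Ppargc1a values ranked much as the myotube markers did. The marker mean was 12.49, 12.64, 12.37 and 12.16 in scrambled 1 to 4, and in 4 of the 5 probe sets the arrays held the same order, with scrambled 2 highest, then 1, 3 and 4. In 1434100_x_at the last pair was exchanged. The order of scrambled 2, 1, 3 and 4 was not particular to Ppargc1a. Polrmt 1437377_a_at held it, with 9.55, 9.60, 9.35 and 9.20 in scrambled 1 to 4. So did Rxrb, outside the 10 genes, with 9.76, 9.90, 9.57 and 9.36, though its groups differed by only 0.03. Tfam 1448224_at did not hold it. Among the DOR siRNA arrays, with marker means of 11.84, 11.76, 11.51 and 11.21, no probe set of Ppargc1a kept the order of the markers in all 4 arrays except 1434100_x_at. All 5 probe sets also had mean levels at or below 7.11, the 90th percentile of 37 genes of unrelated tissues on the same arrays. Mean level alone thus did not show a signal above background. Those 37 genes ranged from 3.03 to 7.85, so 7.11 is not the measured background of any 1 probe set. At 1460336_at, scrambled 1 and 2 read 7.34 and 7.89, above 7.11, and the other arrays at most 7.09. The part of differentiation state or of weak signal in the Ppargc1a difference was not tested.

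**Figure D3:**
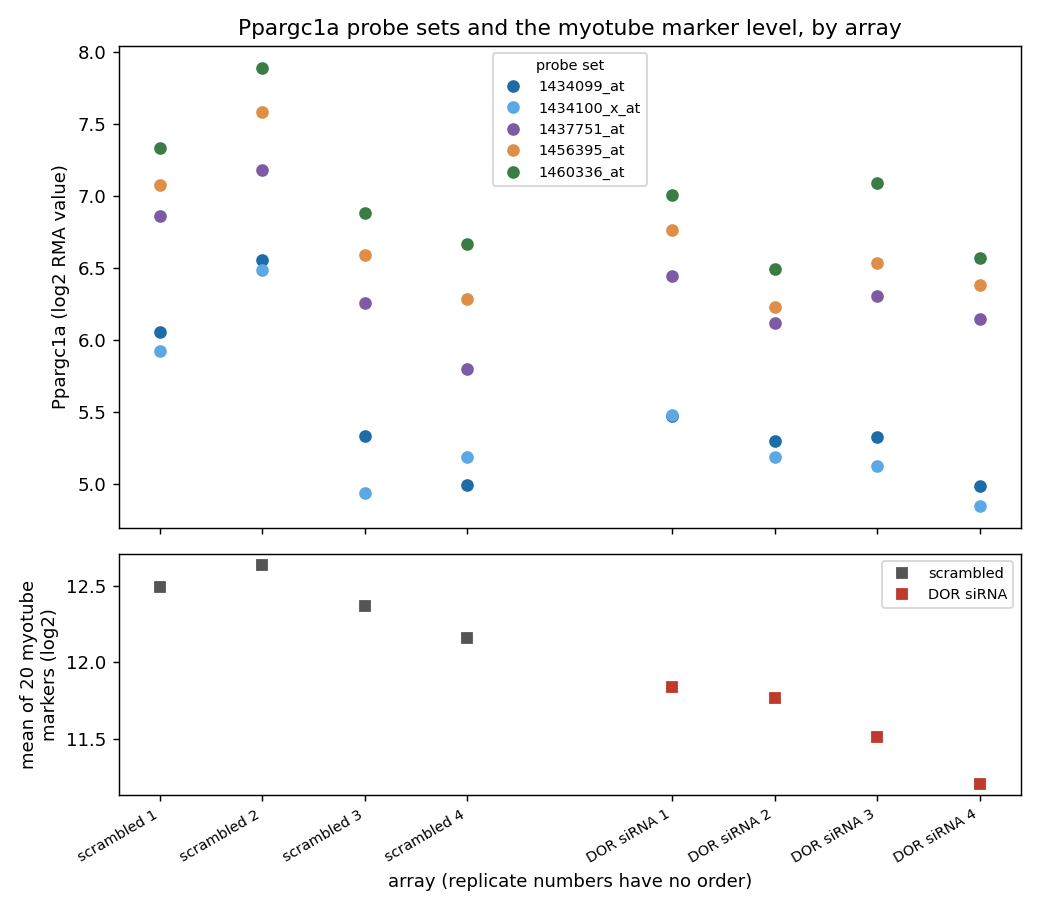
Upper panel, log2 RMA value of the 5 Ppargc1a probe sets (colours) in each array; lower panel, mean log2 value of 20 myotube markers in the same arrays (grey scrambled, red DOR siRNA). The scrambled arrays spread widely, from 6.67 to 7.89 for 1460336_at, with scrambled 2 highest in both panels, while the DOR siRNA arrays lie between 6.49 and 7.09.

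Ppargc1b encodes PGC-1beta, a relative known to sustain basal mitochondrial content. Its probe set, 1449945_at, read 9.74, 9.75, 9.42 and 9.46 with scrambled RNA and 9.30, 9.28, 9.46 and 9.53 with DOR siRNA. DOR siRNA 1 and 2 were below all scrambled arrays, while DOR siRNA 3 and 4 lay between them. The means were 9.59 ± 0.18 and 9.39 ± 0.12 (SD, n = 4 each), a difference of -0.20 ± 0.10 (95% interval -0.43 to 0.02, limma adjusted p = 0.38).

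Pprc1 encodes the PGC-1-related coactivator, known as the growth-regulated member. Its probe set, 1426381_at, read 8.88, 8.86, 8.78 and 9.01 with scrambled RNA and 8.76, 8.92, 9.001 and 8.92 with DOR siRNA. The groups covered nearly the same range. The difference was 0.02 ± 0.08 (95% interval -0.16 to 0.20, limma adjusted p = 0.96).

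Whether the 3 coactivators shifted by different amounts was tested on the difference between 2 genes in each array, as 3 of 5 such pairs of genes. The shift of Ppargc1a minus that of Pprc1 was -0.42 (exact two-sided permutation p = 0.23, 0.57 adjusted over the 5). For Ppargc1b minus Pprc1 it was -0.22 (exact p = 0.14, 0.57 adjusted) and for Ppargc1a minus Ppargc1b -0.20 (exact p = 0.54, 0.77 adjusted). Without scrambled 2 the shift was -0.18 for Ppargc1a minus Pprc1 and -0.02 for Ppargc1a minus Ppargc1b, and without scrambled 4 they were -0.64 and -0.33. A log2 difference of a signal near background is compressed toward 0. Whether this bears on the shifts that use Ppargc1a was not tested. No pair was told apart, in a design whose smallest possible p is 0.0286.

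None of the DNA-binding partners passed the test. Esrra encodes ERRalpha, a main docking site of the coactivators and known as a target of PGC-1alpha itself. Its brightest probe set, 1460652_at, read 8.85, 9.37, 8.96 and 8.97 with scrambled RNA and 9.23, 9.03, 9.13 and 9.03 with DOR siRNA. Scrambled 1 and 2 were the lowest and the highest of all 8 arrays. The means were 9.04 ± 0.23 and 9.11 ± 0.10 (SD, n = 4 each), a difference of 0.07 ± 0.11 (95% interval -0.18 to 0.31, limma adjusted p = 0.87). The other probe set, 1442864_at, differed by -0.02 ± 0.07 (limma adjusted p = 0.96). Its mean level of 6.82 was below 7.11, so mean level alone did not show a signal above background for it.

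Nrf1 encodes nuclear respiratory factor 1, which binds GC-rich sites before many genes of the respiratory chain. Its brightest probe set, 1424787_a_at, read 7.51, 7.45, 7.33 and 7.35 with scrambled RNA and 7.37, 7.37, 7.18 and 7.19 with DOR siRNA. Each DOR siRNA array was below the scrambled array of its number, and the groups overlapped because scrambled 3 and 4 were also low. The difference was -0.13 ± 0.08 (95% interval -0.31 to 0.04, limma adjusted p = 0.50). The other 3 probe sets did not show it, with differences of 0.02 ± 0.07 (1420978_at), 0.01 ± 0.08 (1434627_at) and 0.06 ± 0.10 (1445914_at). The last 2 had mean levels below 7.11, so mean level alone did not show a signal above background for them. The shift of 1424787_a_at minus that of 1420978_at was -0.15 (exact permutation p = 0.086, 0.34 adjusted over the 12 pairs of probe sets tested).

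Gabpa encodes the subunit of GABP, also called nuclear respiratory factor 2, that holds its ETS DNA-binding domain. The 2 probe sets of the gene read differently. The brightest, 1450664_at, gave 10.04, 10.04, 10.00 and 10.19 with scrambled RNA and 9.86, 10.01, 10.05 and 10.03 with DOR siRNA, a difference of -0.08 ± 0.08 (95% interval -0.25 to 0.09, limma adjusted p = 0.73). The other, 1450665_at, gave 8.03, 8.08, 8.09 and 8.27 against 7.84, 7.22, 8.04 and 7.99. DOR siRNA 2 stood far below the other 7 arrays, and DOR siRNA 3 lay just above scrambled 1. The difference was -0.35 ± 0.16 (95% interval -0.70 to 0.00387, limma adjusted p = 0.33), and it was -0.16 without DOR siRNA 2.

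The gap between these 2 Gabpa probe sets was 2.01, 1.96, 1.90 and 1.91 with scrambled RNA and 2.02, 2.80, 2.01 and 2.03 with DOR siRNA. It was wider in each DOR siRNA array than in any scrambled one, though in 3 of them only slightly, and by 0.27 on average (exact permutation p = 0.0286, the smallest possible, 0.34 adjusted over 12 pairs of probe sets). Without DOR siRNA 2 the widening was 0.074. That array also had the largest difference between the 3' and 5' probe sets of 4 mouse control transcripts. This measure compares the signal at both ends of a transcript and does not tell what set it. It was 0.97 log2 units in DOR siRNA 2 and 0.51 to 0.72 in the other 7 arrays. Its part in the Gabpa difference was not tested beyond the fit that holds it as a covariate, where 1450665_at differed by -0.26 (limma adjusted p = 0.13).

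**Figure D4:**
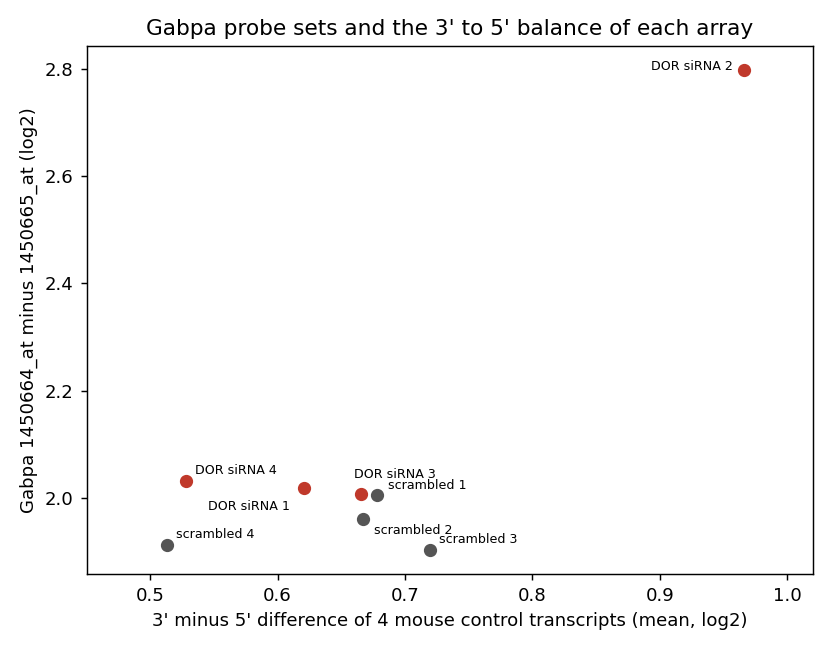
Gap between the 2 Gabpa probe sets (log2, vertical axis) against the mean 3' minus 5' difference of 4 mouse control transcripts (log2, horizontal axis) in the 8 arrays, grey for scrambled and red for DOR siRNA. DOR siRNA 2 stands alone at 0.97 and 2.80, and the other 7 arrays lie between 1.90 and 2.03 on the vertical axis.

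Between the DNA-binding factors of the respiratory genes, the shift of Nrf1 minus that of Gabpa was -0.06 (exact permutation p = 0.69, 0.77 adjusted over the 5 pairs of genes). With the mean over all probe sets of each gene it was 0.20 (exact permutation p = 0.17, 0.43 adjusted), so its sign depended on the probe sets used.

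The 4 mitochondrial proteins are encoded in the nucleus, and some of their promoters hold letters that match motifs of the factors above. RefSeq promoters (GRCm38.p6, 250 bases before the start, both strands) were searched for the letters of 6 motifs. There were 10 promoters for 9 of the 10 genes, Nrf1 having 2, and Ppargc1b had none in the table. The core TGCGCA of the NRF-1 site, its own reverse complement, was present in 3 of the 10, those of Tfb2m, Polrmt and Esrra, and in 6.43% of all 32851 promoters. The GABP motif CCGGAAGT was present in 1, that of Tfam, and in 2.88% of all. A longer NRF-1 palindrome, which does not hold that core, was in 0 of the 10 and 0.782% of all. The ERRalpha motif TCAAGGTCA was in 0 and 0.387%, the CRE motif TGACGTCA in 0 and 1.55%, and the GC box GGGCGG in 5 and 32.7%. A match of letters is a description and not a site shown to be bound.

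The promoters of Tfb2m (chr1:179546277-179546526, minus strand), Polrmt (chr10:79746582-79746831, minus strand) and Tfam (chr10:71238045-71238294, minus strand) are shown because they hold letters that match motifs of the DNA-binding members. Capitals mark the NRF-1 core, 181 to 176 bases before the start in Tfb2m and 134 to 129 in Polrmt, and the GABP motif, 47 to 40 bases before the start in Tfam. GC boxes are not marked.
Tfb2m: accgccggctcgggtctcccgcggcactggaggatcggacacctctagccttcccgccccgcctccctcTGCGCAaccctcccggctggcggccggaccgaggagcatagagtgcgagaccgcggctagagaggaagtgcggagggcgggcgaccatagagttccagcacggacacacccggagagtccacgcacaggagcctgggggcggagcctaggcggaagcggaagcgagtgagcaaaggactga
Polrmt: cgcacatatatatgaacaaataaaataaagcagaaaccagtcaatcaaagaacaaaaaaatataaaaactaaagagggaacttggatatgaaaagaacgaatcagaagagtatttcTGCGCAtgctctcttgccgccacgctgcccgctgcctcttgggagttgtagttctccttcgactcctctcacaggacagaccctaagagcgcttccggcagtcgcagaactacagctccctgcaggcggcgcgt
Tfam: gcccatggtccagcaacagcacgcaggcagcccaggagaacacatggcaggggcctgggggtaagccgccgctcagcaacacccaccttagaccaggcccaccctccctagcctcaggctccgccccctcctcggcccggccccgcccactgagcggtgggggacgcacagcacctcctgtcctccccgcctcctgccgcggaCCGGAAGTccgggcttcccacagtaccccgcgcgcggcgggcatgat

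Tfam encodes the HMG-box protein that packs mitochondrial DNA and bends its promoters. The brighter of its 2 probe sets, 1448224_at, read 9.70, 9.91, 9.83 and 9.80 with scrambled RNA and 9.89, 9.74, 9.88 and 9.94 with DOR siRNA. The groups lay over each other, with the lowest array among the scrambled and the highest among the DOR siRNA. The means were 9.81 ± 0.09 and 9.86 ± 0.09 (SD, n = 4 each), a difference of 0.05 ± 0.08 (95% interval -0.12 to 0.22, limma adjusted p = 0.85). The other probe set, 1456215_at, differed by -0.02 ± 0.08. Its mean level of 6.84 was below 7.11, so mean level alone did not show a signal above background for it.

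Tfb2m encodes the initiation factor that helps the mitochondrial polymerase open its promoters, and it had the smallest p of the 10 genes. Its probe set, 1423441_at, read 10.63, 10.71, 10.73 and 10.41 with scrambled RNA and 10.33, 10.53, 10.40 and 10.15 with DOR siRNA. Each DOR siRNA array was below the scrambled array of its number, but DOR siRNA 2 exceeded scrambled 4. The means were 10.62 ± 0.15 and 10.35 ± 0.16 (SD, n = 4 each), a difference of -0.27 ± 0.10, or 1.21-fold (95% interval -0.50 to -0.05, limma adjusted p = 0.21). With replicate numbers as a block, called the paired fit here, the limma adjusted p was 0.061. With the 3' to 5' measure as a covariate, a choice made after seeing the data, the difference was -0.32 and passed (limma adjusted p = 0.031).

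Tfb1m encodes the relative of Tfb2m known as the methyltransferase of the small mitochondrial ribosomal RNA. Its brightest probe set, 1449749_s_at, read 8.43, 8.33, 8.17 and 8.004 with scrambled RNA and 8.03, 8.16, 7.89 and 7.89 with DOR siRNA. Again each DOR siRNA array was below the scrambled array of its number, and scrambled 4 lay inside the DOR siRNA range. The difference was -0.24 ± 0.11 (95% interval -0.48 to -0.01, limma adjusted p = 0.30). The other probe set, 1435924_at, differed by -0.22 ± 0.12 (limma adjusted p = 0.45), and by -0.088 without scrambled 2. With a mean level of 6.87, below 7.11, mean level alone did not show a signal above background for 1435924_at. Tfb1m and Tfb2m were not told apart in their shifts, which differed by 0.03 (exact permutation p = 0.77, 0.77 adjusted over the 5 pairs of genes).

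Polrmt encodes the single-subunit RNA polymerase of mitochondria. At 1437377_a_at, its brighter probe set, it read 9.55, 9.60, 9.35 and 9.20 with scrambled RNA and 9.29, 9.29, 9.28 and 9.04 with DOR siRNA. Scrambled 4 was below 3 of the DOR siRNA arrays. The difference was -0.20 ± 0.10 (95% interval -0.43 to 0.03, limma adjusted p = 0.40).

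The other Polrmt probe set, 1452835_a_at, had the opposite sign. It read 9.08, 9.18, 9.28 and 8.72 with scrambled RNA and 9.12, 9.27, 9.24 and 9.06 with DOR siRNA, a difference of 0.10 ± 0.12 (limma adjusted p = 0.78). Scrambled 4 was the lowest array and the others lay together. The shifts of the 2 probe sets differed by -0.31 (exact permutation p = 0.057, 0.34 adjusted over 12 pairs of probe sets), and their mean gave -0.05 for the gene. A direction for Polrmt is therefore not settled by these arrays.

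Same-numbered arrays were compared because the deviations of each number correlated between the groups, at 0.142 to 0.468. Unequal numbers reached 0.265, and only for 5 of the 8 arrays did the equal number give the highest value. The pairing is thus inferred from these values and is not certain. By the brightest probe set, 4 of the 10 genes (Nrf1, Tfb1m, Tfb2m and Polrmt) were lower in 4 of 4 pairs, as were 12.5% of all named genes. Counting all probe sets, 7 of 22 were lower in 4 of 4 pairs, against 12.8% of all probe sets, and 0 of the 22 were higher in all 4. These 7 came from 6 genes and were not independent. The paired fit called none of the 22, while it called 6.28% of all probe sets.

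Around the 10 genes, 3 lists of related genes were counted by the brightest probe set of each gene, where 1.45% of all named genes fell and 3.11% rose. These lists too were chosen with earlier results of these data known, so their counts are descriptions and not a test. Of 44 measured partners and modulators of the PGC-1 proteins, 4 fell and 0 rose, and the median difference was -0.01. Mef2c, a muscle transcription factor known to drive the Ppargc1a promoter, read 10.88, 11.13, 10.99 and 11.20 with scrambled RNA and 9.16, 9.27, 9.69 and 9.99 with DOR siRNA, with no overlap. It fell by 1.53 ± 0.16 (limma adjusted p = 0.0014), at 5 of its 5 probe sets. The related Mef2a fell by 0.42 ± 0.09 (limma adjusted p = 0.035) at its brightest and at 4 of its 6 probe sets.

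Fbxw7, a subunit of a ubiquitin ligase known to mark PGC-1alpha for degradation, read 8.87, 8.92, 9.08 and 8.77 with scrambled RNA and 8.32, 8.44, 8.39 and 8.40 with DOR siRNA. Every DOR siRNA array was below every scrambled one. It fell by 0.52 ± 0.08 (limma adjusted p = 0.0085) and, at its other probe set, by 0.75 ± 0.13 (limma adjusted p = 0.012). Prkaa2, the alpha2 catalytic subunit of AMPK, a kinase that activates PGC-1alpha, fell by 0.78 ± 0.18 (limma adjusted p = 0.043) at 1 of its 3 probe sets. Mef2c and the myotube markers fell in the same arrays, and the part of differentiation state in this list was not tested. Leaving out 1 array left 2 to 5 lower calls, and centring each array on its median left 3, Prkaa2 being lost (limma adjusted p = 0.051). The calls of Mef2a and Prkaa2 were lost without any 1 array other than scrambled 4, with adjusted p up to 0.11 and 0.13.

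Of 40 genes that maintain mitochondrial DNA or process its RNA, none passed limma at an adjusted p under 0.05, while at an unadjusted p under 0.05, 3 were lower and 1 higher, where 6.55% of all named genes were lower and 11.5% higher. The median was -0.07, and 33 of the 40 had a negative difference, against 45.1% of all named genes. All 40 lay above the median of all values, while the named genes were not matched to them for level. Genes of 1 list can also vary together between arrays, so their signs are not independent. The smallest p values belonged to Lig3, the DNA ligase of mitochondria, at -0.28 ± 0.07 (limma adjusted p = 0.073), and to Fastkd5, which takes part in the maturation of mitochondrial messages, at -0.30 ± 0.10 (limma adjusted p = 0.14).

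Of 44 known nuclear targets of ERRalpha, NRF-1 and GABP, 1 fell and 0 rose, with a median of -0.05 and 29 negative differences, where 45.1% of all named genes were negative. All 44 lay above the median of all values, so the limits given for the genes of mitochondrial DNA hold here too. The gene that fell was Mfn2, a mitofusin of the outer membrane, at -0.82 ± 0.13 (limma adjusted p = 0.010) and at 1 of its 2 probe sets. It read 9.33, 9.50, 9.29 and 8.98 with scrambled RNA and 8.53, 8.76, 8.31 and 8.24 with DOR siRNA, without overlap. The paired fit called 2 lower. Slc25a4, the ADP/ATP carrier of muscle, rose at 1 of its 4 probe sets, 1434897_a_at, by 0.47 ± 0.09 (limma adjusted p = 0.019). Its brightest, 1424562_a_at, differed by 0.13 ± 0.07 (limma adjusted p = 0.39). The call of 1434897_a_at was lost without scrambled 1, 2 or 3 or DOR siRNA 3, with adjusted p up to 0.062.

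**Figure D5:**
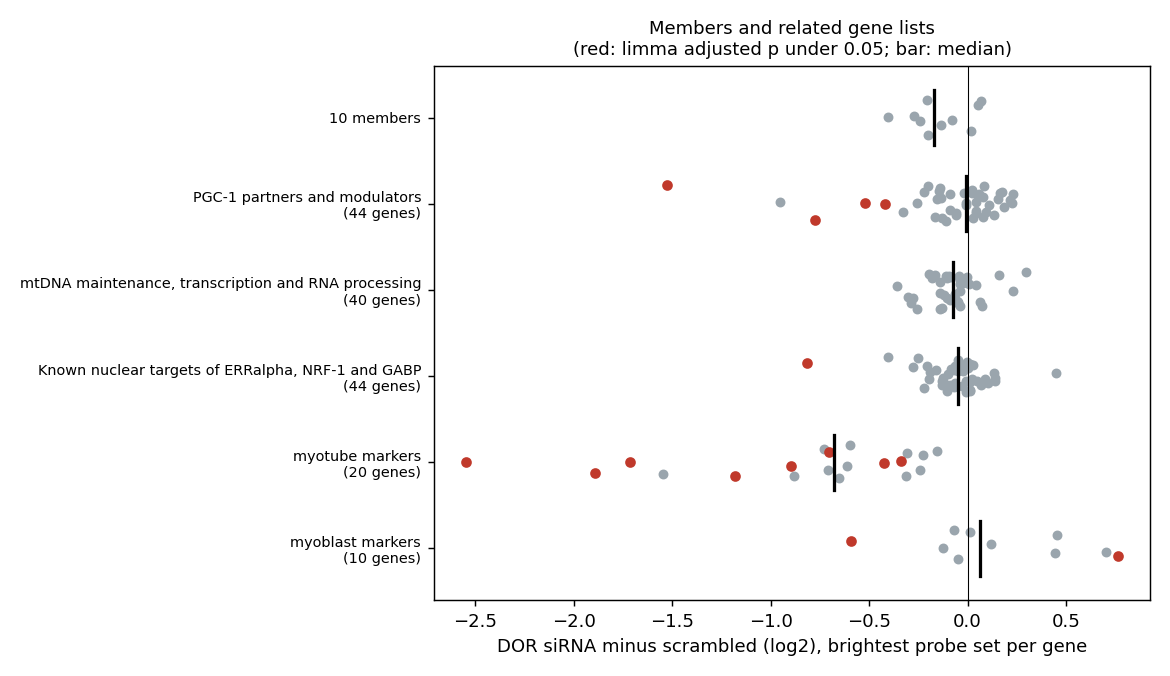
Difference of DOR siRNA minus scrambled (log2, horizontal axis) for each gene, by its brightest probe set, in the 10 genes, 3 related lists and 2 marker lists; red points passed limma at an adjusted p under 0.05 and bars are medians. The 10 genes have no red point and a median of -0.17, while 8 of 20 myotube markers are red with a median of -0.68.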

How the data were processed

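Per the labels' protocols, 25 ng of total RNA per culture was amplified and hybridised to Affymetrix arrays. The authors deposited log2 values made with RMA, per the submitters' processing notes; no version or setting is given in the sources used here. RMA makes the arrays' distributions alike, so a shift of all transcripts would not show.

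The test was limma 3.58.1 under R 4.3.3 (lmFit and eBayes, group alone) on 45037 probe sets, leaving out 64 controls. Two-sided p-values received a Benjamini-Hochberg adjustment over that whole table, with a call at 0.05. Differences are DOR siRNA minus scrambled, with the model's standard error. The brightest probe set has the highest mean over the 8 arrays. Exact permutation tests used scipy 1.17.1, and figures matplotlib 3.10.9. The fit was tested on simulated data, 4 arrays against 4, with 200 changed probe sets in each of 10 runs. It recovered 1.4% of changes of 0.25 log2 units, 42% of 0.5, 92% of 1 and 99.8% of 2. Of its calls, 3.92% were false. In that simulation, most changes of the sizes seen in the 10 genes would thus be missed. It changed 200 probe sets, while 1452 were called in the data. With fewer changes the adjustment is stricter, so the recovery on the real arrays may be higher than these shares.

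Both groups carry replicate numbers 1 to 4. After subtracting group means, arrays of equal number correlated at 0.142 to 0.468, each above 0.1, so the numbers were taken as pairing the arrays. Unequal numbers gave -0.394 to 0.265, the highest above 3 of the 4 equal ones, and for 5 of the 8 arrays the equal number gave the highest value.

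All probe sets of the 10 genes were named. In each list the rule took up to 6 called genes, or the 2 with the smallest p where none was called. The genes and lists were chosen with earlier results of these data known. The alternatives tried were other normalizations, a filter on dim probe sets, another variance model, the replicate block, the mean over probe sets, leaving out each array and, added after seeing the data, the 3' to 5' measure as a covariate. Promoters came from RefSeq.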

Additional observations from a re-analysis of the deposited data

Results flagged for a closer look

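Among 86 groups of 4 arrays tested for a value far from its group, 44 of them of the 10 genes, 4 stood apart, and chance gives such a value in about 1 in 20 groups. For Tfam 1456215_at, DOR siRNA 1 read 6.74 log2 units while the other DOR siRNA arrays read 6.85 to 6.87. For Polrmt 1437377_a_at, DOR siRNA 4 read 9.04 while the others read 9.28 to 9.29. For Fbxw7 1424986_s_at, DOR siRNA 2 read 7.72 while the others read 7.14 to 7.20. For Lig3 1423419_at, scrambled 3 read 8.78 while the other scrambled arrays read 8.92 to 8.95.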

How the results depend on the processing

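Over the 22 probe sets and all alternatives, 324 of 338 values kept the sign of the reported difference, the other 14 being of Pprc1, of 3 probe sets of Nrf1 and of the dimmer ones of Esrra, Tfam and Polrmt. Among the 338, 1 passed the threshold, Tfb2m with the 3' to 5' measure as a covariate. With that covariate, added after seeing the data, 1582 probe sets were higher and 1218 lower in place of 917 and 535, and 1 of the 22 was lower in place of 0. With the replicate block (the paired fit) the calls were 1562 higher and 1265 lower, and known targets lower numbered 2 in place of 1, Ndufs8 being added (adjusted p = 0.048). The pairing changed no call among the 22. The filter on dim probe sets gave 1 lower gene in place of 0 in the list of mitochondrial DNA maintenance, Lig3 (adjusted p = 0.049). Leaving out each array in turn gave 377 to 1299 higher and 197 to 1011 lower probe sets, 2 to 5 lower partners and modulators, and 0 to 1 higher known targets; the highest counts came without scrambled 4. No called value changed sign. The mean over probe sets applies to genes, so it gave no count of probe sets. For the 5 pairs of genes and 12 pairs of probe sets, the exact permutation test cannot reach a p below 0.0571 once an array is left out. Its paired form, with all 4 pairs of arrays, cannot reach a p below 0.125. Those tests therefore say nothing about stability. Precision is set by having 4 arrays per group, and 10 of the 22 probe sets, all 5 of Ppargc1a among them, had mean levels at or below the 90th percentile of genes of unrelated tissues.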

Other observations

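Esrrg, which encodes ERRgamma, a receptor partner of the PGC-1 proteins known from oxidative muscle, changed its call with the pairing. It was chosen after its values were seen. Its brightest probe set, 1455267_at, read 7.01, 7.22, 6.50 and 4.67 with scrambled RNA and 5.90, 6.06, 5.22 and 4.40 with DOR siRNA. The groups overlapped because scrambled 4 was far below the other scrambled arrays, while each DOR siRNA array was below the scrambled array of its number. The difference was -0.95 ± 0.51 (limma adjusted p = 0.43) without the replicate block and -0.95 ± 0.15 with it (limma adjusted p = 0.0095). Leaving out 1 array without the block gave -1.51 to -0.62, with limma adjusted p from 0.034 (without scrambled 4) to 0.71, and the call was made without scrambled 4 alone. The other 2 probe sets differed by 0.08 ± 0.08 and -0.19 ± 0.09, and all 3 had mean levels below the median of all values.

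Pdk4, a kinase that restrains pyruvate oxidation and a known target of ERRalpha, was also chosen after its values were seen. It read 7.48, 7.88, 7.84 and 8.46 with scrambled RNA and 8.32, 8.71, 8.24 and 8.19 with DOR siRNA. Scrambled 4 lay inside the DOR siRNA range and the other 3 scrambled arrays below it. The difference was 0.45 ± 0.18 (limma adjusted p = 0.26, and 0.18 with the replicate block). Leaving out 1 array gave 0.30 to 0.63, with limma adjusted p from 0.032 (without scrambled 4) to 0.55, and the call was made without scrambled 4 alone.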
